A study of Mus musculus with 82 samples.

Results

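The 54 genes described here encode proteins of DNA replication and of mitosis. They were taken by gene symbol from the raw gene count files, and all 54 were found among the 55376 genes of those files. The 24 S phase genes and the 30 mitosis genes are reported apart. In each comparison below all 54 genes passed the filter on low counts.

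A dividing cell first licenses its replication origins, where the origin recognition complex with Cdc6 and Cdt1 loads the Mcm helicase, and then copies its DNA in S phase with polymerases, a sliding clamp and a fresh supply of deoxynucleotides. E2F transcription factors switch on most of the genes for these steps at the G1 to S boundary. The genes of mitosis rise later, in G2 and M phase, when Cdk1 with its cyclins, the Polo and Aurora kinases, kinetochores and spindle motors separate the chromosomes, and the anaphase promoting complex ends the phase. Hematopoietic stem cells (HSCs) are mostly quiescent in bone marrow, while the myeloid progenitors that they give rise to cycle often.

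HSCs were sorted from the bone marrow of male C57BL/6J mice as LSK cells (lineage negative, with Sca-1 and c-kit) that lacked CD34 and Flk2 and carried CD150, from pooled young mice (YHSCs, 4 RNA libraries) or from individual old mice (OHSCs, 8 RNA libraries). Young mice came from The Jackson Laboratory and old mice from the NIA Aged Rodent Colony, so source and pooling cannot be told apart from age. For the knockdown, OHSCs were transduced with a lentivirus carrying a GFP marker and either a scramble control shRNA or 1 of 2 shRNAs (shRNA1 and shRNA2) against a short variant of Btaf1, a gene whose protein removes the TATA-binding protein from DNA. These cells were sorted after a short culture with thrombopoietin, stem cell factor and polyvinyl alcohol, or were transplanted into lethally irradiated CD45.1 recipients with CD45.1 myeloid progenitors and recovered as GFP+CD45.2+ LSK CD48-CD150+ cells, with 2 libraries for each shRNA in each setting. Recipients were young female mice whose cells were pooled, the sort gate differed between the settings, and culture and transplantation were separate experiments. Common myeloid progenitors (CMP), granulocyte and macrophage progenitors (GMP) and megakaryocyte and erythrocyte progenitors (MEP) of young mice gave 2 RNA libraries each, all of 1 labelled batch. Chromatin of YHSCs and OHSCs was measured by ATAC-seq (4 libraries per age were analysed here, those of OHSCs numbered 5 to 8) and by ChIP-seq for H3K27ac (2 libraries per age), a mark of active promoters and enhancers. Where the labels do not tie libraries to separate cultures or animals, p-values measure the spread between these libraries, which may be technical.

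The promoters of the members are shown first, because the S phase genes and the mitosis genes carried different short motifs near their starts. RefSeq promoter sequences (GRCm38.p6, 250 bases before to 50 bases after each start) were matched for 18 of the 24 S phase genes and 24 of the 30 mitosis genes. An E2F motif (TTTCCCGC, TTTCGCGC, TTTGCCGC or TTTGGCGC on either strand) was present in 9 of the 18 S phase promoters (50%), in 1 of the 24 mitosis promoters (4.17%, Cdk1) and in 2.6% of all 27025 promoters. The cell cycle genes homology region (CHR, TTTGAA on either strand), which the DREAM and B-Myb complexes bind, was present in 3 of 18 S phase promoters (16.7%), in 17 of 24 mitosis promoters (70.8%) and in 20.2% of all promoters. CCAAT on either strand was frequent in both groups, at 72.2% and 75%, against 41.1% of all promoters. The CHR and CCAAT motifs occurred together in 62.5% of mitosis promoters, in 16.7% of S phase promoters and in 8.97% of all promoters. In 40 other S phase genes and 47 other mitosis genes the shares of matched promoters with a motif were 30% and 7.5% for E2F and 20% and 67.5% for CHR. Of 41 matched genes with an ATAC-seq region at a start, 39 had a RefSeq window that overlapped it, while the windows of Aurka and Kif2c lay at another start, so their matches do not bear on the regions described below. These matches describe letters in the window and were not measured binding sites.

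The 6 S phase promoters below show the E2F motif in capitals, each in a run of 30 bases written 5′ to 3′ on the strand of the gene. In the run of Mcm5 the capitals cover 2 overlapping matches, TTTCGCGC and, read on the opposite strand, TTTGGCGC.
Mcm5: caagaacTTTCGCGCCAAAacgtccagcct
Mcm6: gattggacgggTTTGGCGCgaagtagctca
Mcm7: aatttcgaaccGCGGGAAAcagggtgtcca
Cdc6: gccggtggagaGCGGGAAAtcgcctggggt
Orc1: ttcggttagtgGCGCGAAAagttttctcct
Pola1: gtcatcacaggGCGCCAAAtgcactcccgc
In the same order they lie at chr8:75109349-75109378 (+ strand, 141 bases), chr1:128359734-128359763 (- strand, 39 bases), chr5:138172030-138172059 (- strand, 157 bases), chr11:98908002-98908031 (+ strand, 130 bases), chr4:108579416-108579445 (+ strand, 19 bases) and chrX:93632275-93632304 (- strand, 130 bases), where the number of bases is the distance to the start of transcription from the match nearest to it. Mcm5, Mcm6 and Mcm7 are subunits of the replicative helicase, Cdc6 helps to load it, Orc1 belongs to the origin recognition complex and Pola1 is the catalytic subunit of the primase-associated polymerase.

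The 6 mitosis promoters below show the CHR in capitals, chosen because these genes are named in the comparisons or mark mitotic cells.
Cdk1: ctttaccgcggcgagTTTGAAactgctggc
Ccnb2: cagggactagaaTTTGAAaataagactgta
Cdc20: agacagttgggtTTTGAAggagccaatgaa
Ube2c: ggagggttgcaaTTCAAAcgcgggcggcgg
Mki67: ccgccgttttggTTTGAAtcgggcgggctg
Top2a: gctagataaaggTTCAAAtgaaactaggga
Their positions, in that order, are chr10:69352913-69352942 (- strand, 9 bases), chr9:70421704-70421733 (- strand, 161 bases), chr4:118437344-118437373 (- strand, 12 bases), chr2:164769888-164769917 (+ strand, 23 bases), chr7:135716460-135716489 (- strand, 92 bases) and chr11:99024195-99024224 (- strand, 17 bases). Cdk1 is the kinase that starts mitosis, Ccnb2 is a B-type cyclin that activates it, Cdc20 and Ube2c serve the anaphase promoting complex, Mki67 encodes the proliferation marker Ki-67 and Top2a encodes the topoisomerase that untangles chromosomes.

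Whole-gene counts of Btaf1, which do not separate the short variant from the canonical transcript, were compared first. Btaf1 stood at 137 and 141 CPM (counts scaled to the library total) in the culture controls, 110.03 and 119 with shRNA1 and 111 and 113 with shRNA2 (log2 fold change -0.31 ± 0.05 SE, adjusted p = 0.00151). After transplantation it stood at 161 and 165 in the controls, 131 and 139 with shRNA1 and 119 and 118 with shRNA2 (log2 fold change -0.37 ± 0.08 SE, adjusted p = 0.791). Knockdown and control libraries did not overlap in either setting. RNA libraries held 20475764 to 24654742 counts in YHSCs and OHSCs, 37292602 to 42737054 in the shRNA libraries and 33177394 to 36510850 in the progenitors. All 9 HSC markers were detected in YHSCs, OHSCs and each shRNA group, and also in CMP and GMP, so detection does not set these groups apart. Their sum was 3802 to 3854 CPM in YHSCs, 3466 to 3976 in OHSCs, 1380 to 1388 in cultured controls, 959 to 964 in CMP and 546 to 608 in GMP. GMP markers summed to 56696 to 57661 CPM in GMP and erythroid markers to 13273 to 13945 CPM in MEP, while Procr and Hoxb5 were at 0 in MEP.

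The 2 gene groups were lowest in HSCs taken directly from mice and highest in progenitors. Summed over the 24 S phase genes, YHSCs held 2078 to 2226 CPM, OHSCs 1580 to 1849, transplanted control HSCs 3087 to 3277, cultured control HSCs 5234 to 5407, GMP 6228 to 6240, CMP 7067 to 7217 and MEP 10070 to 10256. Summed over the 30 mitosis genes, the order was OHSC at 396 to 628 CPM, YHSC at 563 to 659, transplanted control at 1164 to 1528, cultured control at 4356 to 4419, CMP at 4531 to 4662, GMP at 5490 to 5703 and MEP at 5802 to 5972. Neighbours in the S phase order did not overlap, whereas OHSCs and YHSCs overlapped in the mitosis sum. The ratio of the mitosis sum to the S phase sum was 0.264 to 0.296 in YHSCs and 0.241 to 0.357 in OHSCs, 0.377 to 0.4665 in transplanted controls, 0.806 to 0.844 in cultured controls, 0.628 to 0.660 in CMP, 0.880 to 0.916 in GMP and 0.576 to 0.582 in MEP. In these bulk samples, fewer cycling cells and less of each RNA per cycling cell cannot be told apart. HSC, shRNA and progenitor libraries were separate series, and the shRNA libraries were made with another kit, so levels and ratios set side by side across them also differ in library series.

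**Figure D1:**
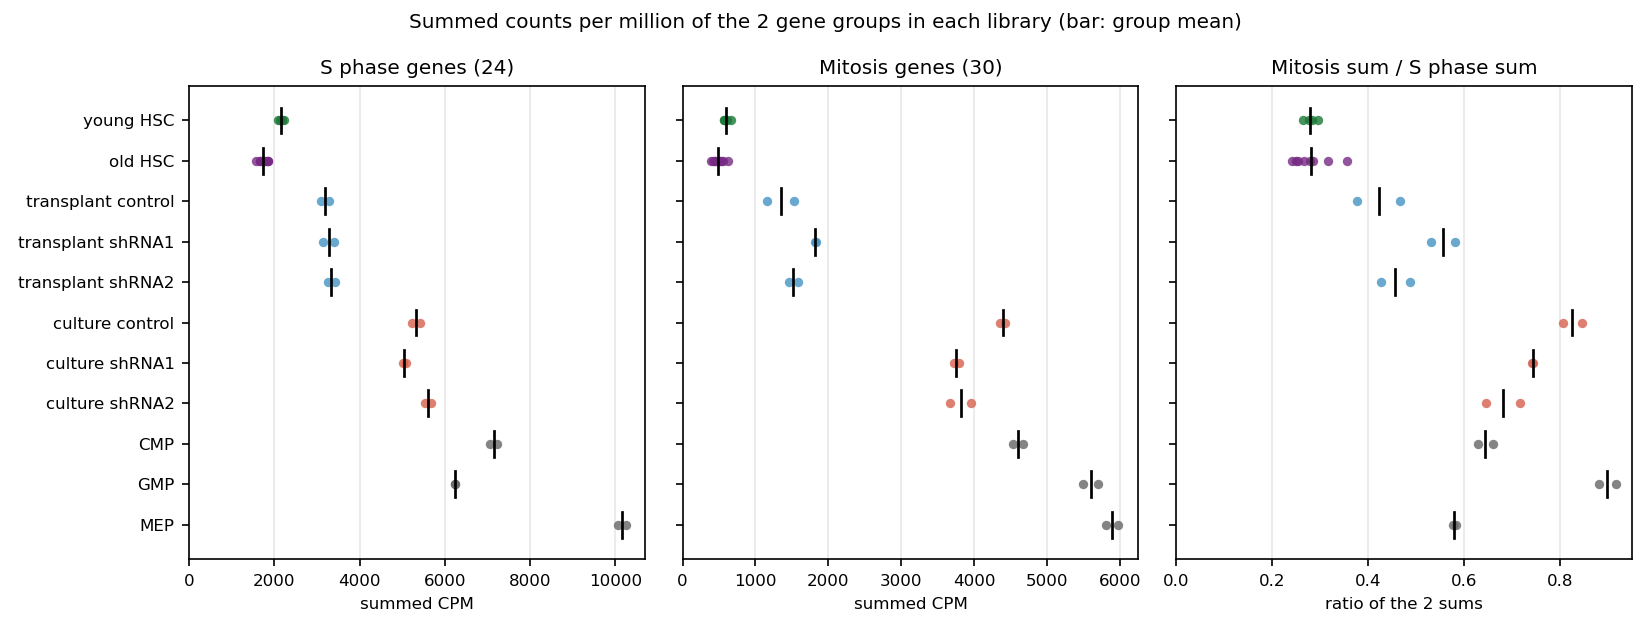
Summed CPM of the 24 S phase genes (left) and the 30 mitosis genes (middle) and their ratio (right) in each RNA library, with 1 point per library and a bar at the group mean. The S phase sums of the 8 OHSC libraries lie at or under 1849 CPM, below all 4 YHSC libraries, while the mitosis sums of the ages overlap.

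**Figure D2:**
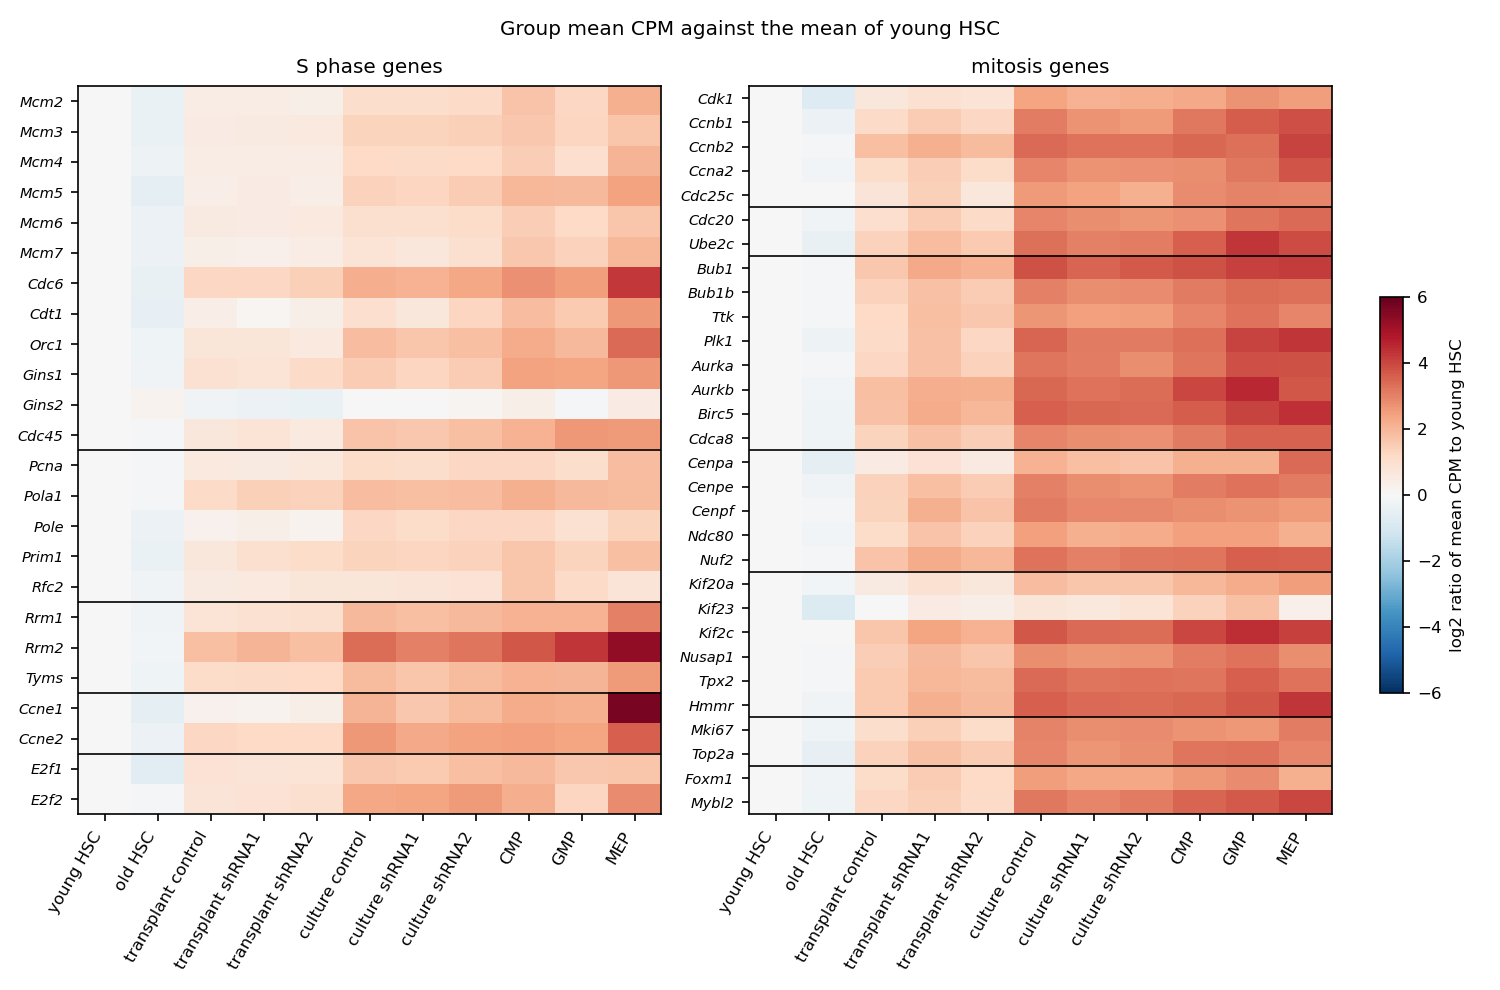
Log2 ratio of each gene's group mean CPM to its mean in YHSCs, for S phase genes (left) and mitosis genes (right), with groups as columns and black lines between functional roles. Red cells are above YHSC and blue cells below, and OHSC is the group with the most blue cells.

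Levels of 8 S phase genes are given by library. Mcm2, a helicase subunit, had 195, 185, 184 and 178 CPM in YHSCs and 122, 140.3 and 150.2 (lowest, median and highest) in OHSCs, 597 and 599 in CMP, 428 and 451 in GMP and 819.9 and 816 in MEP. Cultured HSCs held 397 and 379.9 CPM with the control, 386 and 382 with shRNA1 and 429 and 404 with shRNA2, and transplanted cells 242 and 256 with the control, 230.3 and 275 with shRNA1 and 251 and 227 with shRNA2. The mean of Mcm2 was highest in the MEP group and lowest in the OHSC group without knockdown, and neighbours in that order did not overlap. Mcm5, another helicase subunit, had 138, 126, 134 and 129 CPM in YHSCs and 74.8, 93.4 and 98.6 (lowest, median and highest) in OHSCs, 532 and 508 in CMP, 507 and 498 in GMP and 722 and 699 in MEP. With the control shRNA in culture it had 351 and 347 CPM, against 337 and 312 with shRNA1 and 389 and 382 with shRNA2, and transplanted cells 169 and 179 with the control, 163 and 203 with shRNA1 and 182 and 168 with shRNA2. Without knockdown, Mcm5 was highest in the MEP group and lowest in the OHSC group by mean, and neighbours in that order did not overlap. Cdc6, a helicase loader, had 23.1, 22.03, 22.5 and 18.9 CPM in YHSCs and 11.4, 15.9 and 19.3 (lowest, median and highest) in OHSCs, 154 and 140.2 in CMP, 116 and 132 in GMP and 409 and 423 in MEP. After culture Cdc6 stood at 103 and 93.5 CPM with the control, 94.1 and 91.2 with shRNA1 and 109 and 106 with shRNA2, and transplanted cells 50.4 and 53.1 with the control, 49.5 and 52.8 with shRNA1 and 63.97 and 50.97 with shRNA2. The mean of Cdc6 was highest in the MEP group and lowest in the OHSC group without knockdown, and YHSC overlapped OHSC. Pcna, the sliding clamp, had 109, 122, 104 and 102 CPM in YHSCs and 89.7, 103 and 105 (lowest, median and highest) in OHSCs, 266 and 258 in CMP, 228 and 222 in GMP and 392 and 394 in MEP. In cultured cells Pcna had 236 and 237 CPM with the control, 227 and 229.6 with shRNA1 and 262 and 257 with shRNA2, and transplanted cells 161 and 162 with the control, 159 and 161 with shRNA1 and 175 and 159 with shRNA2. Without knockdown, Pcna was highest in the MEP group and lowest in the OHSC group by mean, and YHSC overlapped OHSC. Rrm2, the regulated subunit of ribonucleotide reductase, had 32.2, 25.5, 25.4 and 18.5 CPM in YHSCs and 17.8, 22.9 and 26.6 (lowest, median and highest) in OHSCs, 339 and 331 in CMP, 492 and 511 in GMP and 1061 and 959.8 in MEP. Cultured HSCs held 262 and 258 CPM with the control, 211 and 198 with shRNA1 and 242 and 233 with shRNA2, and transplanted cells 83.1 and 95.3 with the control, 111 and 94.3 with shRNA1 and 88.7 and 90.5 with shRNA2. The mean of Rrm2 was highest in the MEP group and lowest in the OHSC group without knockdown, and YHSC overlapped OHSC. Cdc45, part of the active helicase, had 15.9, 21.9, 16.7 and 17.4 CPM in YHSCs and 13.3, 17.1 and 19.7 (lowest, median and highest) in OHSCs, 75.1 and 77.3 in CMP, 104 and 111 in GMP and 102 and 109 in MEP. With the control shRNA in culture it had 59.3 and 59.99 CPM, against 55.7 and 55.02 with shRNA1 and 65.2 and 61.8 with shRNA2, and transplanted cells 26.1 and 31.6 with the control, 30.9 and 32.03 with shRNA1 and 24.1 and 30.4 with shRNA2. Without knockdown, Cdc45 was highest in the GMP group and lowest in the OHSC group by mean, and GMP overlapped MEP and YHSC overlapped OHSC. Ccne1, an E cyclin, had 7.36, 4.10, 7.14 and 6.14 CPM in YHSCs and 2.25, 4.45 and 5.37 (lowest, median and highest) in OHSCs, 27.7 and 30.2 in CMP, 26.2 and 28.5 in GMP and 336 and 302 in MEP. After culture Ccne1 stood at 25.9 and 25.5 CPM with the control, 19.1 and 18.7 with shRNA1 and 22.6 and 23.1 with shRNA2, and transplanted cells 6.03 and 8.59 with the control, 5.71 and 8.82 with shRNA1 and 9.76 and 5.93 with shRNA2. The mean of Ccne1 was highest in the MEP group and lowest in the OHSC group without knockdown, and CMP overlapped GMP, transplanted control overlapped YHSC and YHSC overlapped OHSC. E2f1, an activating E2F factor, had 27.3, 31.99, 28.8 and 28.5 CPM in YHSCs and 15.3, 17.97 and 23.3 (lowest, median and highest) in OHSCs, 112 and 110.1 in CMP, 82.98 and 93.3 in GMP and 91.8 and 91.6 in MEP. In cultured cells E2f1 had 92.2 and 87.98 CPM with the control, 95.1 and 80.3 with shRNA1 and 106 and 96.4 with shRNA2, and transplanted cells 47.98 and 57.2 with the control, 43.5 and 55.6 with shRNA1 and 54.8 and 48.9 with shRNA2. Without knockdown, E2f1 was highest in the CMP group and lowest in the OHSC group by mean, and MEP overlapped cultured control and cultured control overlapped GMP.

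Levels of 8 mitosis genes follow in the same order of groups. Mki67, the Ki-67 gene, had 46.2, 45.8, 34.3 and 41.2 CPM in YHSCs and 28.4, 34.7 and 47.4 (lowest, median and highest) in OHSCs, 275 and 267 in CMP, 253 and 248 in GMP and 356 and 352 in MEP. Cultured HSCs held 325 and 333 CPM with the control, 299.98 and 278 with shRNA1 and 281 and 314 with shRNA2, and transplanted cells 69.6 and 103 with the control, 110.1 and 117 with shRNA1 and 92.7 and 88.96 with shRNA2. The mean of Mki67 was highest in the MEP group and lowest in the OHSC group without knockdown, and YHSC overlapped OHSC. Top2a, a DNA topoisomerase gene, had 68.04, 80.3, 61.4 and 65.9 CPM in YHSCs and 36.03, 50.5 and 65.04 (lowest, median and highest) in OHSCs, 616 and 645 in CMP, 687 and 652 in GMP and 508 and 527 in MEP. With the control shRNA in culture it had 519 and 520.2 CPM, against 431 and 439.8 with shRNA1 and 466 and 483 with shRNA2, and transplanted cells 152 and 209 with the control, 229 and 237 with shRNA1 and 193 and 201 with shRNA2. Without knockdown, Top2a was highest in the GMP group and lowest in the OHSC group by mean, and cultured control overlapped MEP and YHSC overlapped OHSC. Cdk1, the mitotic kinase, had 28.5, 31.5, 27.02 and 27.5 CPM in YHSCs and 13.1, 16.8 and 20.4 (lowest, median and highest) in OHSCs, 136 and 139.96 in CMP, 191 and 184 in GMP and 164 and 162 in MEP. After culture Cdk1 stood at 145 and 147 CPM with the control, 122 and 122 with shRNA1 and 126 and 135 with shRNA2, and transplanted cells 39.8 and 52.3 with the control, 55.4 and 54.2 with shRNA1 and 48.9 and 50.7 with shRNA2. The mean of Cdk1 was highest in the GMP group and lowest in the OHSC group without knockdown, and neighbours in that order did not overlap. Ccnb1, its B-type cyclin, had 25.3, 25.4, 25.1 and 20.4 CPM in YHSCs and 14.5, 18.6 and 23.9 (lowest, median and highest) in OHSCs, 214 and 218 in CMP, 313 and 293 in GMP and 364 and 347 in MEP. In cultured cells Ccnb1 had 200.5 and 208 CPM with the control, 154 and 158 with shRNA1 and 133 and 148 with shRNA2, and transplanted cells 43.2 and 64.8 with the control, 65.2 and 71.6 with shRNA1 and 52.1 and 61.2 with shRNA2. Without knockdown, Ccnb1 was highest in the MEP group and lowest in the OHSC group by mean, and YHSC overlapped OHSC. Plk1, the Polo kinase, had 9.54, 9.18, 8.19 and 10.9 CPM in YHSCs and 4.67, 7.61 and 10.1 (lowest, median and highest) in OHSCs, 92.9 and 96.8 in CMP, 161 and 158 in GMP and 200.3 and 176 in MEP. Cultured HSCs held 106 and 107 CPM with the control, 83.5 and 82.9 with shRNA1 and 77.9 and 84.6 with shRNA2, and transplanted cells 17.3 and 24.999 with the control, 33.1 and 30.3 with shRNA1 and 20.7 and 23.9 with shRNA2. The mean of Plk1 was highest in the MEP group and lowest in the OHSC group without knockdown, and YHSC overlapped OHSC. Aurkb, an Aurora kinase, had 13.3, 12.6, 13.9 and 11.5 CPM in YHSCs and 8.09, 10.8 and 16.2 (lowest, median and highest) in OHSCs, 197 and 209.98 in CMP, 309.6 and 290.1 in GMP and 173 and 167 in MEP. With the control shRNA in culture it had 140.2 and 143 CPM, against 124 and 120.4 with shRNA1 and 126 and 135 with shRNA2, and transplanted cells 37.8 and 51.01 with the control, 61.2 and 54.9 with shRNA1 and 54.4 and 58.2 with shRNA2. Without knockdown, Aurkb was highest in the GMP group and lowest in the OHSC group by mean, and YHSC overlapped OHSC. Cdc20, the anaphase activator, had 28.1, 27.8, 27.2 and 28.5 CPM in YHSCs and 20.4, 23.2 and 30.004 (lowest, median and highest) in OHSCs, 183 and 194 in CMP, 262 and 255 in GMP and 313 and 279 in MEP. After culture Cdc20 stood at 215 and 214 CPM with the control, 192 and 188 with shRNA1 and 171 and 184 with shRNA2, and transplanted cells 51.4 and 59.3 with the control, 79.7 and 80.6 with shRNA1 and 58.2 and 65.2 with shRNA2. The mean of Cdc20 was highest in the MEP group and lowest in the OHSC group without knockdown, and YHSC overlapped OHSC. Foxm1, a factor for G2 and M phase genes, had 11.5, 13.5, 11.4 and 10.2 CPM in YHSCs and 8.36, 9.13 and 14.7 (lowest, median and highest) in OHSCs, 67.8 and 74.3 in CMP, 82.4 and 83.3 in GMP and 52.5 and 49.8 in MEP. In cultured cells Foxm1 had 64.2 and 69.4 CPM with the control, 61.9 and 52.8 with shRNA1 and 58.04 and 59.97 with shRNA2, and transplanted cells 20.2 and 29.3 with the control, 33.03 and 33.1 with shRNA1 and 22.5 and 31.2 with shRNA2. Without knockdown, Foxm1 was highest in the GMP group and lowest in the OHSC group by mean, and CMP overlapped cultured control and YHSC overlapped OHSC.

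Aging was compared first, to ask how the replication and mitosis genes differed between OHSCs and YHSCs. Most S phase genes were lower in OHSCs by small amounts. By the rule of a fold change above 1.5 with an adjusted p below 0.05 in edgeR, 0 of 24 S phase genes were higher and 1 was lower, and 0 of 30 mitosis genes were higher and 2 were lower, against 4.8% of the 21522 genes tested called higher and 2.77% called lower. At an adjusted p below 0.05 with any fold change, 1 S phase gene was higher and 14 were lower, and 0 mitosis genes were higher and 3 were lower, against 12.8% and 8.28% of all genes tested. The median log2 fold change was -0.27 over the S phase genes, -0.13 over the mitosis genes and 0.00 over all genes tested, and 23 S phase genes and 27 mitosis genes had a negative value. In 11 S phase genes and 3 mitosis genes each OHSC library was below each YHSC library, against 8.02% of all genes tested.

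Helicase and licensing genes held most of the lower S phase genes, with 8 of 12 lower and Gins2 higher at an adjusted p below 0.05. Mcm5 stood at 138, 126, 134 and 129 CPM in YHSCs and at 74.8 at the lowest, 93.4 at the median and 98.6 at the highest in OHSCs. All 8 OHSC libraries were below all 4 YHSC libraries, and the log2 fold change was -0.49 ± 0.06 SE, adjusted p = 9.28e-07. Mcm2, another helicase subunit, stood at 195, 185, 184 and 178 CPM in YHSCs and at 122 at the lowest, 140.3 at the median and 150.2 at the highest in OHSCs, again without overlap (log2 fold change -0.36 ± 0.05 SE, adjusted p = 1.87e-05). The licensing factors Cdc6 (log2 fold change -0.41 ± 0.11 SE, adjusted p = 0.00652) and Cdt1 (-0.42 ± 0.08 SE, adjusted p = 5.22e-04) fell as well. Cdc6 stood at 23.1, 22.03, 22.5 and 18.9 CPM in YHSCs and at 11.4 at the lowest, 15.9 at the median and 19.3 at the highest in OHSCs, and its ages overlapped in part. Gins2, a subunit of the complex that activates the helicase, was the single member higher in OHSCs at an adjusted p below 0.05. It stood at 84.4, 83.03, 81.9 and 81.5 CPM in YHSCs and at 91.4 at the lowest, 96.05 at the median and 106 at the highest in OHSCs, with no overlap (log2 fold change 0.27 ± 0.05 SE, adjusted p = 6.45e-05). Its partner Gins1 had a log2 fold change of -0.14 and Cdc45, which completes the active helicase, one of -0.03. Neither passed the test.

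Among the other S phase roles, Prim1, the primase subunit, fell by 0.35 on the log2 scale, Pole, the leading strand polymerase, by 0.31 and Rfc2, a clamp loader subunit, by 0.18, each at an adjusted p below 0.05. Pcna, the sliding clamp, stood at 109, 122, 104 and 102 CPM in YHSCs and at 89.7 at the lowest, 103 at the median and 105 at the highest in OHSCs (log2 fold change -0.08 ± 0.05 SE, adjusted p = 0.344). Of the ribonucleotide reductase subunits, Rrm1 fell by 0.16 with an adjusted p of 0.0102 and Rrm2 had a log2 fold change of -0.11 ± 0.13 SE, adjusted p = 0.660. Rrm2 stood at 32.2, 25.5, 25.4 and 18.5 CPM in YHSCs and at 17.8 at the lowest, 22.9 at the median and 26.6 at the highest in OHSCs. Of the E cyclins, which activate Cdk2 for entry into S phase, Ccne2 fell by 0.30 and Ccne1 had a log2 fold change of -0.51 ± 0.18 SE, adjusted p = 0.0538. Ccne1 stood at 7.36, 4.10, 7.14 and 6.14 CPM in YHSCs and at 2.25 at the lowest, 4.45 at the median and 5.37 at the highest in OHSCs, so the ages overlapped at this low level. E2f1, the transcription factor that turns on many S phase genes, was the S phase gene past the fold threshold. It stood at 27.3, 31.99, 28.8 and 28.5 CPM in YHSCs and at 15.3 at the lowest, 17.97 at the median and 23.3 at the highest in OHSCs, with no overlap (log2 fold change -0.62 ± 0.09 SE, adjusted p = 9.23e-06). Without OHSC replicate 4 its fold was under the threshold and 0 S phase genes were called, and without YHSC replicate 2 the count was 2, with a median of -0.24 and -0.27. The number lower at any fold stayed between 11 and 15 with each library left out in turn.

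Mitosis genes were led by Kif23 and Cdk1. Kif23, a kinesin of the central spindle that acts in cytokinesis, stood at 42.4, 40.5, 40.1 and 33.8 CPM in YHSCs and at 17.7 at the lowest, 21.7 at the median and 26.02 at the highest in OHSCs, with no overlap (log2 fold change -0.77 ± 0.09 SE, adjusted p = 9.60e-07). Cdk1 stood at 28.5, 31.5, 27.02 and 27.5 CPM in YHSCs and at 13.1 at the lowest, 16.8 at the median and 20.4 at the highest in OHSCs, also with no overlap (log2 fold change -0.70 ± 0.10 SE, adjusted p = 1.29e-05). Cenpa, the histone H3 variant of centromeres, fell by 0.54 on the log2 scale with an adjusted p of 5.47e-04. The other 27 mitosis genes did not pass the test. Top2a stood at 68.04, 80.3, 61.4 and 65.9 CPM in YHSCs and at 36.03 at the lowest, 50.5 at the median and 65.04 at the highest in OHSCs (log2 fold change -0.43 ± 0.14 SE, adjusted p = 0.0615). Ccnb1, the main partner of Cdk1, had a log2 fold change of -0.28, the Polo kinase gene Plk1 -0.27, Aurkb, the kinase of the chromosomal passenger complex, -0.10, Cdc20 -0.18, Mki67 -0.19 and Foxm1, a transcription factor of G2 and M phase genes, -0.14. Cenpf, Cdc25c and Kif2c went against the majority with values of 0.00, 0.02 and 0.02, far within their standard errors. OHSC replicate 8 had the highest mitosis sum of its group at 628 CPM, and without it 7 mitosis genes were lower at an adjusted p below 0.05, against 8.22% of all genes tested without that library, all 30 values were negative and the median was -0.22.

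Markers of other cells moved with age beside these genes. All 6 B cell markers were called lower in OHSCs (sum 82.3 to 151 CPM in YHSCs and 33.2 to 40.9 in OHSCs), as were 4 of 6 MEP and erythroid markers (1556 to 1669 and 1230 to 1580). The megakaryocyte marker sum was 166 to 201 CPM in YHSCs and 289.7 to 368 in OHSCs and the T and NK cell marker sum 23.9 to 27.1 and 65.5 to 91.8. The GMP marker sum was 144 to 171 and 306 to 351, with 1 gene called higher and 1 lower. The HSC marker sum was 3802 to 3854 in YHSCs and 3466 to 3976 in OHSCs, and the sum of dissociation stress genes 197 to 230.1 and 235 to 317. Their part in the differences of the cell cycle genes was not tested.

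Other genes of the same steps were counted as well. Of 40 other S phase genes, 1 was higher and 16 were lower in OHSCs at an adjusted p below 0.05 (median log2 fold change -0.17), from Mcm10 at -0.48 to Rpa1 at 0.12. Of 47 other mitosis genes, 0 were higher and 7 were lower (median -0.12), and the cytokinesis gene Ect2 had the lowest value at -0.54 and Cep55 the highest at 0.38, which did not pass the test. Among 16 regulators of cell cycle transcription, E2f8, an E2F repressor, was called lower (log2 fold change -0.60) and Rb1, the retinoblastoma protein gene that restrains E2F factors, was called higher (0.62).

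**Figure D3:**
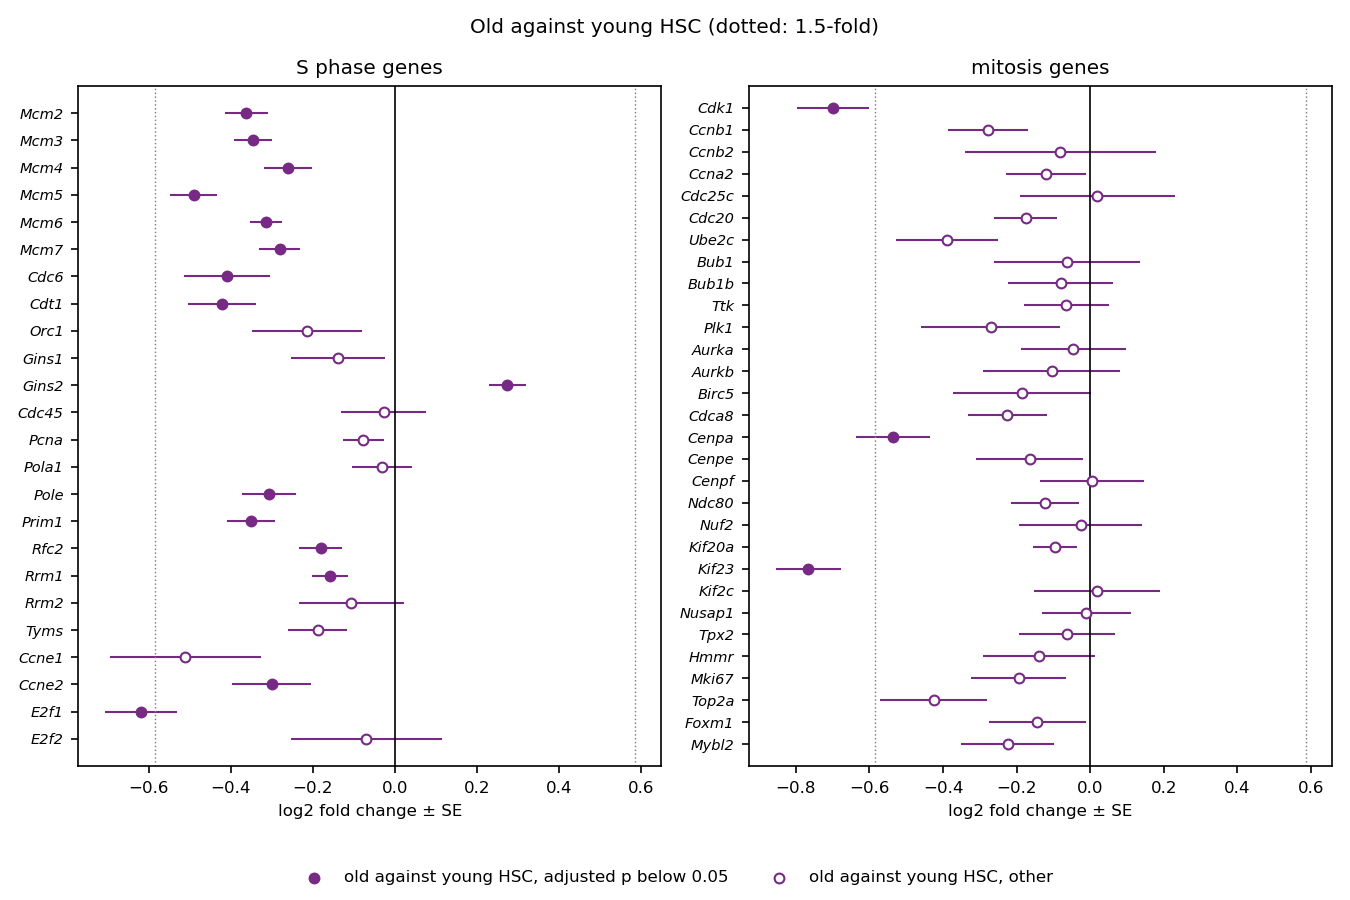
Log2 fold change of OHSC (n = 8) against YHSC (n = 4) for each S phase gene (left) and mitosis gene (right), with bars of 1 SE, filled points for an adjusted p below 0.05 and dotted lines at 1.5-fold. E2f1 (-0.62), Kif23 (-0.77) and Cdk1 (-0.70) lie past the dotted line, and Gins2 (0.27) is the filled point on the right side of 0.

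Promoter chromatin of the members was compared between the ages to see whether accessibility and H3K27ac differed where the transcripts did. ATAC-seq regions overlapping a window from 1000 bases before to 100 bases after a start were found and tested for 50 of the 54 genes, as 52 regions of the 89245 tested. By a fold change above 1.5 with an adjusted p below 0.01, 0 member regions were more accessible in OHSCs and 1 was less, against 1.87% and 1.98% of all promoter regions and 10.1% and 2.9% of all regions tested. The called region was at Aurkb (chr11:69045468-69046050, mm10), with 8.39, 6.03, 6.87 and 8.07 CPM in YHSCs and 4.89, 5.48, 4.93 and 3.60 in OHSCs (log2 fold change -0.66 ± 0.14 SE, adjusted p = 1.32e-04). Each OHSC library there was below each YHSC library, and without OHSC replicate 8 it was not called. At any fold change, 6 of 24 S phase regions and 12 of 28 mitosis regions were less accessible at an adjusted p below 0.01 and 0 were more accessible. Of 15632 promoter regions of all genes, 3922 were less and 600 more accessible by the same rule. The median log2 fold change was -0.13 in S phase regions, -0.18 in mitosis regions, -0.13 in all promoter regions and -0.01 in all regions. The share of all ATAC counts that fell in promoter regions was 43.1% to 43.9% in YHSCs and 39.8% to 40.5% in OHSCs, and its part in these values was not tested.

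At the 3 genes called lower in RNA, no promoter region was past the fold threshold. The E2f1 region (chr2:154568915-154570459) held 35.7, 31.6, 37.1 and 37.3 CPM in YHSCs and 29.2, 30.7, 27.04 and 28.6 in OHSCs (log2 fold change -0.31 ± 0.06 SE, adjusted p = 4.73e-05), without overlap between the ages. The Cdk1 promoter region (chr10:69351953-69353395) had a log2 fold change of -0.16 with an adjusted p of 0.00772, and that of Kif23 (chr9:61946235-61947261) had -0.24 with an adjusted p of 0.0620. Larger values were found at Foxm1 (-0.53), Top2a (-0.53), the kinetochore gene Nuf2 (-0.53, adjusted p = 1.57e-09) and Cdc6 (-0.53), each at an adjusted p below 0.01.

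H3K27ac peaks lay in the promoter window of 49 members, as 51 of 39557 peaks, and Mcm2, Ccna2, Rrm2, Aurkb and Cenpf had none. With 2 libraries per age, a peak was called by a ratio of means above 1.5 with each old and young pair at 1.2 or more, with no test. By this rule 0 member peaks were higher in OHSCs and 2 were lower, against 2.51% and 1.03% of all promoter peaks and 9.11% and 2.27% of all peaks. The E2f1 peak (chr2:154568644-154569663) had a signal of 1.90 and 1.55 in YHSCs and 0.943 and 0.746 in OHSCs, a ratio of 0.490. A peak at Mki67 (chr7:135715533-135716463) had 3.21 and 3.33 in YHSCs and 2.15 and 2.002 in OHSCs, a ratio of 0.635, while the other promoter peak of Mki67 had a ratio of 0.938 and was not called. Kif23 had a ratio of 0.691 and Cdk1 of 0.708, and neither met the rule for lower. The highest ratio was at Cdc25c, at 1.41. Median ratios were 0.944 over S phase peaks, 0.888 over mitosis peaks, 0.979 over all promoter peaks and 1.04 over all peaks. With limma on log2 signal, 0 member peaks passed an adjusted p below 0.05 and 6 had an unadjusted p below 0.05, all lower, against 3.25% of all promoter peaks lower at that p.

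In YHSCs the starts of nearly all members carried H3K4me3, a mark of active promoters, with a peak at 22 of 24 S phase genes and 29 of 30 mitosis genes (57.2% of all genes). H3K27me3, the Polycomb mark, covered the start of 0 of 24 S phase genes and of 6 of 30 mitosis genes (Bub1, Ccnb2, Cdc25c, Cenpf, Mybl2 and Ttk), against 31.3% of all genes. Mcm2, Rrm2 and Ccna2 had no H3K4me3 peak assigned to their start.

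The Btaf1 knockdown in culture was compared with the control shRNA, with both shRNAs as 1 arm. Most mitosis genes had small negative values after knockdown, while S phase genes had a median near 0 that pooled different values of the shRNAs. By the study's rule for knockdown, a fold change above 1.5 with an unadjusted p below 0.05, 0 members were called in either direction, against 2.45% of the 19763 genes tested called higher and 0.972% called lower. At an adjusted p below 0.05 with any fold change, 0 mitosis genes were higher and 18 of 30 were lower, and 0 S phase genes were higher and 1 of 24 was lower, against 1.7% and 1.66% of all genes tested. At an unadjusted p below 0.05 with any fold change, 29 mitosis genes and 4 S phase genes were lower and 0 higher, against 7.56% of all genes tested that were lower, and DESeq2 placed 22 mitosis genes and 2 S phase genes lower at an adjusted p below 0.05, against 3.42% of all genes it gave an adjusted p. The median log2 fold change was -0.22 over mitosis genes, -0.02 over S phase genes and 0.00 over all genes tested. In 28 of 30 mitosis genes each of the 4 knockdown libraries was below both control libraries, against 10.8% of all genes tested. HSC markers summed to 1380 to 1388 CPM in the controls and 1537 to 1615 in the knockdown libraries, with 0 of 9 called. GMP markers summed to 171 to 180.04 and 203 to 254 CPM, with 1 called higher and Mpo and Ctsg at 0 in the controls. T and NK cell markers summed to 35.96 to 37.5 and 19.03 to 25.2 CPM, with 1 called lower and Cd3e and Cd3g at 0 in controls and knockdown libraries alike. Genes of the mitochondrial genome took 0.532% and 0.543% of the counts in the controls and 0.554% to 0.621% in the 4 knockdown libraries, with no overlap. Their part in the mitosis values was not tested.

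Ccnb1 had the largest change, at 200.5 and 208 CPM with the control shRNA, 154 and 158 with shRNA1 and 133 and 148 with shRNA2 (log2 fold change -0.48 ± 0.05 SE, adjusted p = 2.08e-04). Plk1 followed with 106 and 107 CPM with the control shRNA, 83.5 and 82.9 with shRNA1 and 77.9 and 84.6 with shRNA2 (log2 fold change -0.39 ± 0.05 SE, adjusted p = 4.21e-04). Both genes were lower in all 4 knockdown libraries than in both controls. Kif2c, a microtubule-depolymerizing kinesin gene, stood at 78.8 and 73.8 CPM with the control shRNA, 61.8 and 58.04 with shRNA1 and 53.7 and 62.1 with shRNA2 (log2 fold change -0.39 ± 0.07 SE, adjusted p = 0.00367), again without overlap. By role, 3 of 5 genes of Cdk1 and its activators passed the test, both anaphase ubiquitin ligase genes (Cdc20 and Ube2c), 4 of 8 mitotic kinases and checkpoint genes, 4 of 5 centromere and kinetochore genes and 4 of 6 spindle genes. Cdk1 had a log2 fold change of -0.23 ± 0.05 SE, adjusted p = 0.0234, and Cdc20 one of -0.24 ± 0.04 SE, adjusted p = 0.00636. Top2a fell by 0.21 on the log2 scale with an adjusted p of 0.0320. Mki67 stood at 325 and 333 CPM with the control shRNA, 299.98 and 278 with shRNA1 and 281 and 314 with shRNA2 (log2 fold change -0.18 ± 0.05 SE, adjusted p = 0.0568), and Aurkb (-0.18 ± 0.05 SE, adjusted p = 0.0752) and Foxm1 (-0.22 ± 0.07 SE, adjusted p = 0.125) also missed the threshold. Kif23, at 0.00, was the mitosis gene without a negative value. The count rested on both control libraries, since without control replicate 1 or control replicate 2 the count of lower mitosis genes was 3 in place of 18, with medians of -0.23 and -0.22, and without either shRNA1 library it was 12.

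Of the S phase genes, Ccne2 fell by 0.25 on the log2 scale (adjusted p = 0.0445), which did not pass without control replicate 1, control replicate 2, shRNA1 replicate 1 or shRNA1 replicate 2. Ccne1, at 25.9 and 25.5 CPM with the control shRNA, 19.1 and 18.7 with shRNA1 and 22.6 and 23.1 with shRNA2, had a log2 fold change of -0.31 ± 0.10 SE, adjusted p = 0.126. Rrm2 stood at 262 and 258 CPM with the control shRNA, 211 and 198 with shRNA1 and 242 and 233 with shRNA2 (-0.25 ± 0.09 SE, adjusted p = 0.215). Helicase genes lay between -0.14 and 0.12, with Mcm2 at 0.03, Mcm5 at 0.01 and Cdc6 at 0.01, and Pcna and E2f1 had values of 0.03 and 0.05. Of all S phase values 10 were positive and 14 negative. Values opposite to most S phase genes were those of Mcm5, Cdc6, Mcm2, Pcna, Mcm3, E2f1, Mcm6, Rfc2, Gins2 and E2f2, from 0.01 to 0.13.

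S phase values in culture were higher with shRNA2 than with shRNA1, and 3 of these differences passed the test. A direct comparison of shRNA2 with shRNA1, added after the data were seen, gave positive values in 24 of 24 S phase genes (median log2 fold change 0.19), of which 3 (Cdt1, Mcm7 and Tyms) were higher and 0 lower at an adjusted p below 0.05, against 0.611% and 0.354% of all genes tested. Cdt1 stood at 66.2 and 62.1 CPM with the control shRNA, 51.5 and 50.7 with shRNA1 and 77.6 and 77.1 with shRNA2, so that the 2 shRNAs lay on either side of the control (shRNA2 against shRNA1 0.63 ± 0.09 SE, adjusted p = 0.00229). Mitosis genes had positive values in 20 of 30 and 0 passed the test (median 0.06). Against the control, shRNA1 alone had a median log2 fold change of -0.12 over S phase genes and -0.24 over mitosis genes, and shRNA2 alone had medians of 0.09 and -0.19. At an adjusted p below 0.05, shRNA1 alone had 0 S phase genes higher and 8 lower and 0 mitosis genes higher and 27 lower, against 4.2% and 5.79% of all genes tested. With shRNA2 alone 7 S phase genes were higher and 1 lower, and 0 mitosis genes were higher and 20 lower, against 3.47% and 4.22%. With both shRNAs as 1 arm, 18 of the 47 other mitosis genes were lower and 0 higher at an adjusted p below 0.05 (median -0.21). Of 40 other S phase genes 1 was lower (Atad2, -0.26) by the same rule, against 1.66% of all genes tested that were lower. Markers of other cells also set the 2 shRNAs apart in culture. The sum of the 6 MEP and erythroid markers was 519.8 to 524.3 CPM with the control, 430.7 to 447.3 with shRNA1 and 569.4 to 580.5 with shRNA2, on either side of the control as for Cdt1, and Car1 and Ermap were at 0 with each Btaf1 shRNA. The sum of the 5 megakaryocyte progenitor markers, all detected, was 799 to 821 CPM with the control, 930.1 to 937.9 with shRNA1 and 792 to 843 with shRNA2, and that of the 6 GMP markers was 202.6 to 203.3 with shRNA1 and 247.7 to 254.4 with shRNA2. Their part in the differences between the shRNAs was not tested.

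**Figure D4:**
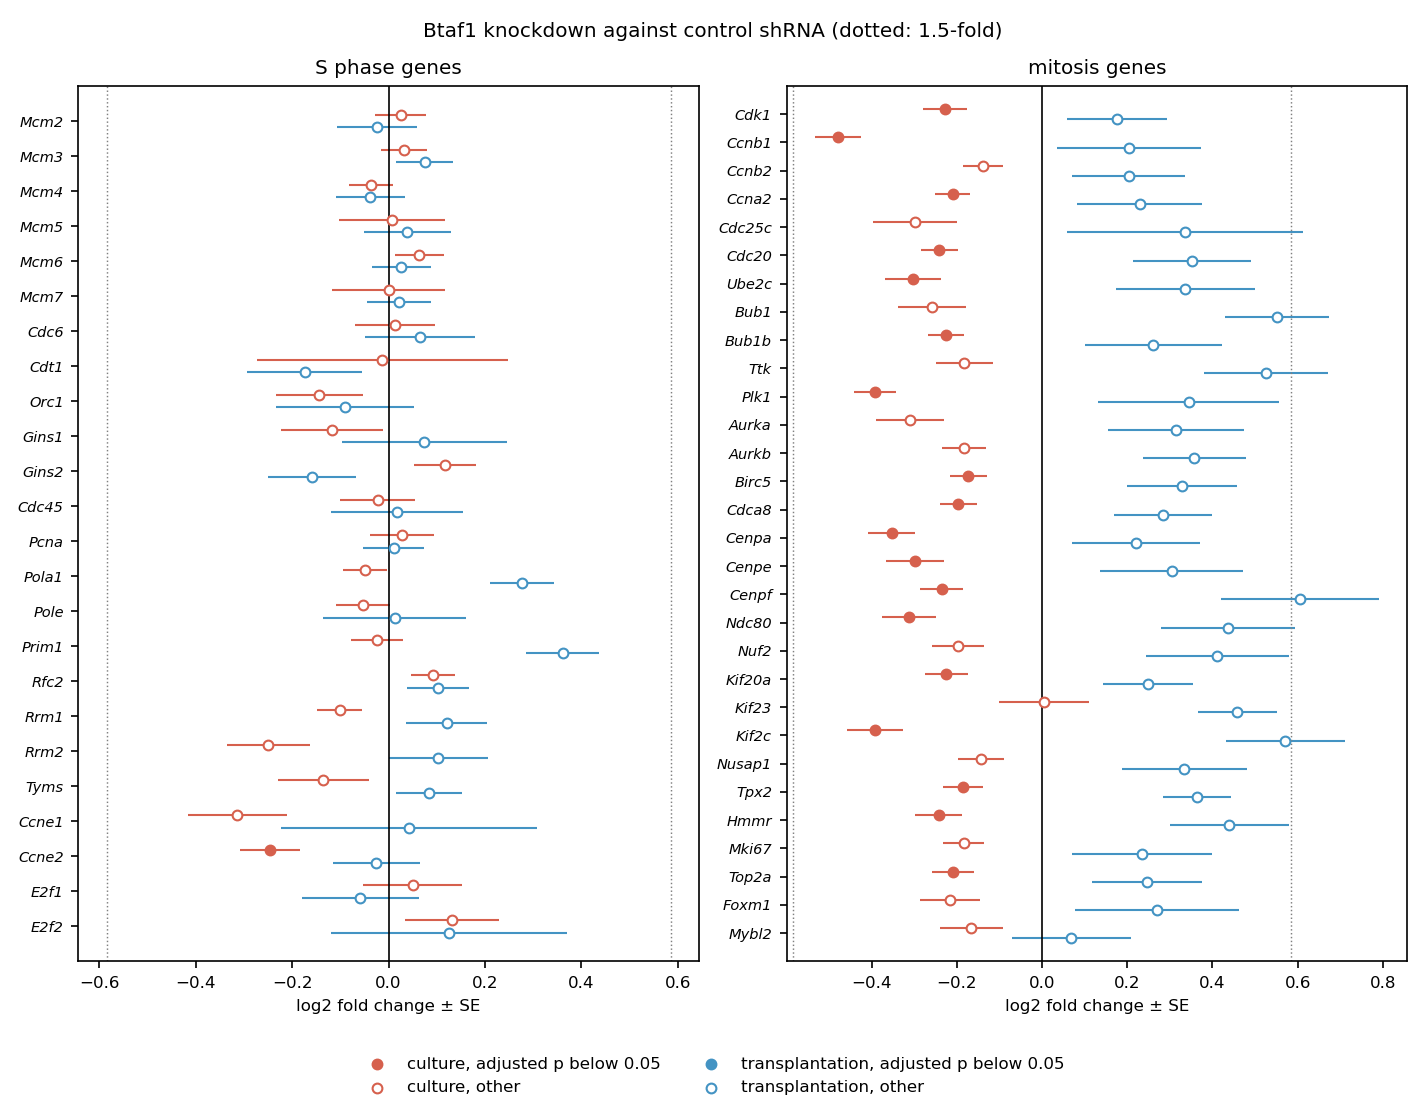
Log2 fold change of Btaf1 knockdown (4 libraries) against control shRNA (2 libraries) in culture (red) and after transplantation (blue) for S phase genes (left) and mitosis genes (right), with bars of 1 SE and filled points for an adjusted p below 0.05. Mitosis genes lie left of 0 in culture, apart from Kif23 at 0.00, and right of 0 after transplantation, where no point is filled.

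After transplantation the values of the mitosis genes were positive, and none passed the adjusted test. The same rule called 0 S phase genes in either direction, 1 mitosis gene higher and 0 lower, against 1.43% of the 20350 genes tested called higher and 0.811% called lower. No gene among all those tested passed an adjusted p below 0.05 in edgeR. All 30 mitosis genes had a positive log2 fold change, with a median of 0.33, against 0.03 over S phase genes and 0.00 over all genes tested, but without control replicate 1 the positive values were 24 of 30 mitosis genes and 10 of 24 S phase genes. At an unadjusted p below 0.05 with any fold change, 15 of 30 mitosis genes and 2 of 24 S phase genes were higher and 0 lower, against 3.27% of all genes tested that were higher, and DESeq2 placed 4 mitosis genes and 1 S phase gene higher at an adjusted p below 0.05, against 0.176% of all genes it gave an adjusted p. In 11 mitosis genes each knockdown library was above both controls, against 8.24% of all genes tested.

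Cenpf, a kinetochore protein gene, was the one called. It stood at 26.7 and 35.1 CPM with the control shRNA, 49.5 and 58.2 with shRNA1 and 36.01 and 45.2 with shRNA2 (log2 fold change 0.60 ± 0.19 SE, edgeR unadjusted p = 0.00978, adjusted p = 0.852). All 4 knockdown libraries were above both controls. Kif2c stood at 16.2 and 19.4 CPM with the control shRNA, 30.2 and 27.8 with shRNA1 and 24.7 and 23.5 with shRNA2 (log2 fold change 0.57 ± 0.14 SE, edgeR adjusted p = 0.823), also without overlap. Plk1, by contrast, stood at 17.3 and 24.999 CPM with the control shRNA, 33.1 and 30.3 with shRNA1 and 20.7 and 23.9 with shRNA2, so that the arms overlapped (0.34 ± 0.21 SE, adjusted p = 0.928). Ccnb1 (0.20), Cdk1 (0.18), Mki67 (0.24), Top2a (0.25), Foxm1 (0.27), Cdc20 (0.35) and Aurkb (0.36) did not pass the adjusted test. The controls themselves differed, with Mki67 at 69.6 and 103 CPM and a mitosis sum of 1164 and 1528 CPM. The count called was 0 without control replicate 1 (median 0.14) and 9 without control replicate 2 (median 0.54), 0 without either shRNA1 library and 2 without either shRNA2 library. By shRNA, shRNA1 alone gave 5 called (median 0.42) and shRNA2 alone 0 (median 0.15), against 247 of 19608 and 416 of 19639 genes tested called higher. With 1 knockdown library left out, 242 to 372 of the 19945 to 20087 genes tested were called higher. Erythroid markers summed to 1284 to 1689 CPM in the controls, 913 to 1233 with shRNA1 and 1440 to 1475 with shRNA2, and HSC markers to 3002 to 3124, 2746 to 2819 and 2642 to 2970. GMP markers summed to 195 to 297 CPM in the controls, 202 to 453 with shRNA1 and 191 to 222 with shRNA2, with 5 of 6 log2 fold changes positive (median 0.84) and 0 called. Dissociation stress genes summed to 257 to 287 CPM in the controls, 247.2 to 247.9 with shRNA1 and 181 to 194 with shRNA2, all 4 knockdown libraries below both controls, with 1 of 7 tested called lower (Egr1) by the study's rule. The share of mitochondrial genes was 0.766% to 0.8289% and 0.774% to 1.003%, with overlap. Their part in the mitosis values was not tested.

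S phase genes after transplantation included 2 with an unadjusted p below 0.05. Prim1 stood at 66.6 and 68.4 CPM with the control shRNA, 80.1 and 87.1 with shRNA1 and 89.7 and 91.4 with shRNA2 (log2 fold change 0.36 ± 0.08 SE, edgeR adjusted p = 0.791) and Pola1 at 114 and 124 CPM with the control shRNA, 143 and 149 with shRNA1 and 149 and 138 with shRNA2 (0.28 ± 0.07 SE, adjusted p = 0.819). Both encode subunits of the primase and polymerase alpha complex that starts DNA strands, and in both each knockdown library was above the controls. The other values lay near 0, with Mcm2 at -0.02, Mcm5 at 0.04, Cdc6 at 0.06, Pcna at 0.01, Rrm2 at 0.10, Cdc45 at 0.02, Ccne1 at 0.04 and E2f1 at -0.06. Values opposite to most S phase genes were those of Cdt1, Gins2, Orc1, E2f1, Mcm4, Ccne2 and Mcm2, from -0.17 to -0.02.

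The difference between the knockdown effects in the 2 settings was tested as an interaction in 1 fit of the 12 shRNA libraries. It was positive in all 30 mitosis genes (median 0.56), which means that the knockdown value was higher after transplantation than in culture. By a fold above 1.5 with an adjusted p below 0.05, 6 mitosis genes and 0 S phase genes were called higher, against 0.256% of the 21443 genes tested. At any fold, 10 mitosis genes and 2 S phase genes were higher, against 0.518%. The 6 were Kif2c (difference of log2 fold changes 0.96 ± 0.12 SE, adjusted p = 0.00325), Cenpf (0.83 ± 0.16 SE, adjusted p = 0.0360), the checkpoint kinase gene Bub1 (0.81 ± 0.11 SE, adjusted p = 0.00372), the kinetochore gene Ndc80 (0.74 ± 0.14 SE, adjusted p = 0.0256), the checkpoint kinase gene Ttk (0.70 ± 0.14 SE, adjusted p = 0.0312) and Aurka, the spindle pole Aurora kinase gene (0.62 ± 0.11 SE, adjusted p = 0.0236). The 2 S phase genes were Prim1 (0.39 ± 0.07 SE, adjusted p = 0.0272) and Pola1 (0.33 ± 0.07 SE, adjusted p = 0.0486), and the median over S phase genes was 0.04. Leaving out 1 library moved the count from 6 to between 2 and 25. It was 2 without transplant control replicate 1, culture control replicate 1, culture shRNA1 replicate 2 or culture shRNA2 replicate 1, 3 without culture control replicate 2 or culture shRNA1 replicate 1, and 25 without transplant control replicate 2. Of 47 other mitosis genes, 7 were called higher and 0 lower (Kif14 highest at 0.87, not called), and of 40 other S phase genes 0 were called. In transplanted cells shRNA2 gave lower mitosis values than shRNA1 in 30 of 30 genes (median -0.26), in a comparison also added after the data were seen, and 2 of them passed an adjusted p below 0.05 (Cdc20 and Cdc25c), against 0.872% of all genes tested. In the interaction, values opposite to most S phase genes were those of Gins2, Cdt1, E2f1, Mcm2, Mcm6, Pcna and E2f2, from -0.27 to 0.00.

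Cultured control HSCs had higher values than transplanted ones in all 54 genes. Between the control libraries, 21 of 24 S phase genes and 30 of 30 mitosis genes were higher in culture and 0 were lower, against 11.4% of all genes called higher and 13.9% called lower. All 54 passed an adjusted p below 0.05, and no member's libraries overlapped, against 27.9% of all genes with each culture library higher. The median log2 fold change was 0.94 for S phase genes and 1.86 for mitosis genes, against -0.03 for all genes tested. Plk1 stood at 106 and 107 CPM in culture and 17.3 and 24.999 after transplantation (log2 fold change 2.47 ± 0.14 SE, adjusted p = 2.50e-08) and Bub1 at 90.5 and 95.3 and 19.8 and 20.4 (2.34 ± 0.09 SE, adjusted p = 2.91e-10). Of the S phase genes, Ccne1 stood at 25.9 and 25.5 CPM in culture and 6.03 and 8.59 after transplantation (1.95 ± 0.24 SE, adjusted p = 4.06e-05) and Rrm2 at 262 and 258 and 83.1 and 95.3 (1.67 ± 0.08 SE, adjusted p = 2.17e-09). The helicase genes Mcm2 (0.78), Mcm5 (1.14) and Cdc45 (1.18) rose, while Mcm6 (0.58), Gins2 (0.34) and Rfc2 (0.30) were under the fold threshold. Cdk1 (1.80), Ccnb1 (2.05), Mki67 (2.06), Top2a (1.66), Aurkb (1.81), Cdc20 (2.09) and Foxm1 (1.57) all rose. HSC markers summed to 1380 to 1388 CPM in culture and 3002 to 3124 after transplantation, with 7 of 9 called lower in culture, and megakaryocyte markers to 799 to 821 and 233 to 236. Mitochondrial genes took 0.532% and 0.543% of the counts in culture and 0.766% and 0.8289% after transplantation, and the part of these markers and shares was not tested. Culture, experiment, sort gate and time since transduction cannot be told apart in this comparison.

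Of the other lists, 34 of 40 other S phase genes and 46 of 47 other mitosis genes were called higher in culture. Pttg1, the securin gene, had the lowest value among the latter (-0.30) and was under the fold threshold. Among transcription regulators E2f8 rose (1.92) and Rbl2, which encodes the retinoblastoma-like protein p130 of quiescent cells, fell (-0.70).

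CMP were compared with YHSCs to place the HSC levels beside those of a cycling progenitor. All 24 S phase genes and all 30 mitosis genes were called higher in CMP and 0 lower, against 21.6% of the 25716 genes tested called higher and 42.8% called lower. The median log2 fold change was 2.31 for S phase genes and 3.48 for mitosis genes, against -0.49 over all genes tested. Kif2c stood at 6.23, 6.10, 5.02 and 5.43 CPM in YHSCs and 87.2 and 95.3 in CMP (log2 fold change 4.36 ± 0.08 SE, adjusted p = 6.15e-22), and Aurkb at 13.3, 12.6, 13.9 and 11.5 and 197 and 209.98 (4.34 ± 0.06 SE, adjusted p = 1.92e-23). Of the S phase genes, Rrm2 stood at 32.2, 25.5, 25.4 and 18.5 CPM in YHSCs and 339 and 331 in CMP (4.08 ± 0.17 SE, adjusted p = 8.90e-07) and Cdc6 at 23.1, 22.03, 22.5 and 18.9 and 154 and 140.2 (3.12 ± 0.07 SE, adjusted p = 1.30e-19). Gins2 had the smallest value, 0.72, and Kif23 the smallest among mitosis genes, 1.74. Mki67 (3.05), Cdk1 (2.63), Ccnb1 (3.53), Top2a (3.55), Mcm5 (2.33) and E2f1 (2.29) lay between. Mitochondrial genes took 0.946% to 1.13% of the counts in YHSCs, 0.591% to 0.610% in CMP, 0.567% to 0.577% in GMP and 0.634% to 0.657% in MEP, and the part of these shares in this and the following comparisons was not tested. Genes detected numbered 37847 to 42062 in YHSCs and 23257 to 23405 in CMP, and the part of this difference was not tested. Cell type and library series cannot be told apart here. All 40 other S phase genes and 46 of 47 other mitosis genes were also called higher, and Pttg1 was again the exception (-0.25).

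GMP differed from CMP in mitosis genes. Of 30 mitosis genes, 13 were called higher in GMP and 0 lower, and of 24 S phase genes 2 were higher and 1 was lower, against 6.25% of the 18234 genes tested called higher and 10.5% called lower. The median log2 fold change was 0.54 over mitosis genes, -0.05 over S phase genes and 0.01 over all genes tested. Plk1 stood at 92.9 and 96.8 CPM in CMP and 161 and 158 in GMP (log2 fold change 0.97 ± 0.06 SE, adjusted p = 1.64e-07) and Ube2c at 118 and 115 and 199.5 and 185 (0.94 ± 0.06 SE, adjusted p = 2.22e-07). Rrm2 (0.80 ± 0.05 SE, adjusted p = 1.05e-07) and Cdc45 (0.72 ± 0.06 SE, adjusted p = 2.14e-06) were the S phase genes called higher. Rrm2 stood at 339 and 331 CPM in CMP and 492 and 511 in GMP. E2f2, an activating E2F factor, was called lower, at 15.4 and 18.4 and 8.90 and 9.16 CPM (-0.69 ± 0.14 SE, adjusted p = 0.00165). On the CPM scale, which has no correction for the makeup of a library, 17 S phase genes lay lower in both GMP libraries than in both CMP libraries, and 2 lay higher, against 51.5% and 18.1% of all genes tested. In the fit of the progenitors alone, the scaling factor of edgeR was 1.08 in both CMP libraries and 0.93 in both GMP libraries. These factors enter each log2 fold change of this comparison, so the number of mitosis genes past 1.5-fold depends on them as well. After that scaling 14 S phase genes had a negative log2 fold change and 10 a positive one, and Mcm5, Pcna and Pola1, lower on the CPM scale, were among the positive values. Ccnb2, Cenpf and Mki67 were lower in both GMP libraries on the CPM scale and positive after scaling, and none of the 3 passed the test. GMP markers took 56696 to 57661 CPM of the GMP libraries and 16203 to 19533 CPM of the CMP libraries. Of 47 other mitosis genes, 6 were called higher in GMP and 0 lower (Sgo2a highest at 0.95), and of 40 other S phase genes 1 was called higher and 0 lower (Tk1, 0.60). Values opposite to most S phase genes were those of Pcna, Pola1, Ccne2, Ccne1, Mcm5, Gins1, Tyms, Rrm1, Cdc45 and Rrm2, from 0.00 to 0.80.

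MEP were higher than CMP and GMP in many S phase genes. Against CMP, 10 of 24 S phase genes were called higher and 1 lower, and 11 of 30 mitosis genes higher and 1 lower, against 17.5% and 29.2% of all genes tested. Against GMP, 11 S phase genes were higher and 0 lower, while 2 mitosis genes were higher and 3 lower, against 16.6% and 27.2%. Median log2 fold changes over S phase genes were 0.57 against CMP and 0.51 against GMP, and over mitosis genes 0.44 and -0.15, with all genes tested at -0.07 and -0.03. Ccne1 had the largest change, at 27.7 and 30.2 CPM in CMP, 26.2 and 28.5 in GMP and 336 and 302 in MEP (log2 fold change 3.58 ± 0.08 SE, adjusted p = 1.51e-13 against CMP). Its paralog Ccne2 stood at 102 and 113 CPM in CMP, 86.7 and 112 in GMP and 229.9 and 230.4 in MEP (1.21 ± 0.11 SE, adjusted p = 1.10e-05). Rrm2 reached 1061 and 959.8 CPM in MEP (1.71 ± 0.05 SE, adjusted p = 4.91e-12) and Cdc6 409 and 423, against 154 and 140.2 in CMP (1.62 ± 0.07 SE, adjusted p = 2.95e-10 against CMP and 1.65 against GMP). Pcna (0.70) rose past the threshold, Mcm2 (0.57), Mcm5 (0.57) and Cdc45 (0.58) rose by less than 1.5-fold, and E2f1 had -0.16. Rfc2 went the other way, at 454 and 458 CPM in CMP and 259 and 241 in MEP (-0.75 ± 0.05 SE, adjusted p = 7.94e-09). Against CMP, values opposite to most S phase genes were those of Rfc2, E2f1 and Pola1, from -0.75 to -0.13. Against GMP, values opposite to most S phase genes were those of Rfc2, Pola1, Cdc45 and E2f1, from -0.48 to -0.05.

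The mitosis genes of MEP moved in both directions. Cenpa rose most, at 156 and 169.6 CPM in CMP, 165 and 161 in GMP and 376 and 392 in MEP (log2 fold change 1.35 ± 0.05 SE, adjusted p = 6.40e-11 against CMP), followed by Plk1 (1.10 ± 0.06 SE, adjusted p = 4.13e-09). Ccnb2 was the other mitosis gene called higher against GMP (0.65 ± 0.05 SE, adjusted p = 8.22e-08). Kif23 fell against both, at 99.97 and 104 CPM in CMP, 143 and 123 in GMP and 54.3 and 43.97 in MEP (-0.94 ± 0.10 SE, adjusted p = 5.54e-06 against CMP and -1.54 ± 0.10 SE, adjusted p = 7.09e-08 against GMP). Against GMP, Aurkb (-0.92 ± 0.05 SE, adjusted p = 2.98e-09) and Foxm1 (-0.80 ± 0.07 SE, adjusted p = 3.55e-07) were also called lower, and without MEP replicate 2 the count of called mitosis genes was 8 in place of 5. Ccnb1 (0.83) and Cdc20 (0.77) rose against CMP past the fold threshold, Mki67 (0.50) and Cdk1 (0.36) rose by less, and Top2a fell by 0.17 on the log2 scale. Against CMP, values opposite to most mitosis genes were those of Kif23, Foxm1, Ndc80, Nusap1, Top2a, Aurkb and Cenpf, from -0.94 to -0.10. Against GMP, values opposite to most mitosis genes were those of Bub1, Cdc20, Ccnb1, Plk1, Kif20a, Birc5, Mybl2, Mki67, Hmmr, Ccna2, Ccnb2 and Cenpa, from 0.01 to 1.13.

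**Figure D5:**
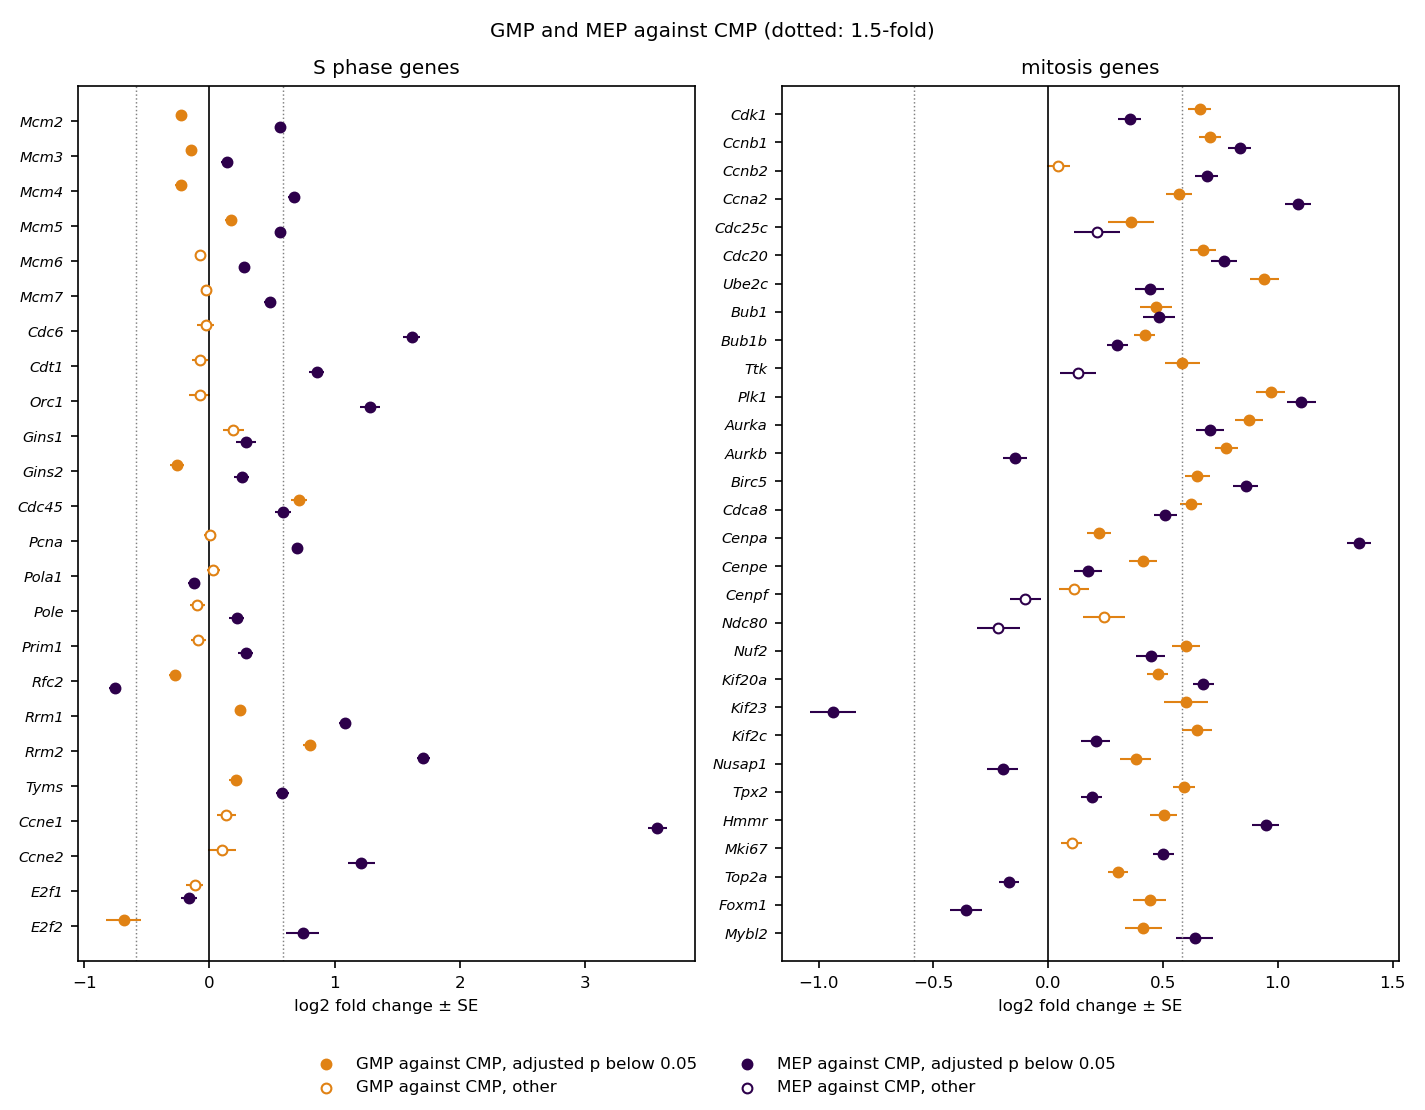
Log2 fold change of GMP (orange) and MEP (purple) against CMP, 2 libraries each, for S phase genes (left) and mitosis genes (right), with bars of 1 SE, filled points for an adjusted p below 0.05 and dotted lines at 1.5-fold. Ccne1 in MEP (3.58) lies farthest from 0, and all 30 mitosis genes lie right of 0 in GMP, although on unscaled CPM Ccnb2, Cenpf and Mki67 were lower there.

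Other S phase genes gave 18 of 40 called higher and 0 lower in MEP against CMP, from Brip1 at -0.46 to the dUTPase gene Dut at 1.27. Of 47 other mitosis genes, 11 were called higher and 2 lower. Cep55, which acts at the end of cytokinesis, had a mean of 53.2 CPM in CMP and 1.79 in MEP (log2 fold change -4.77), in the direction of Kif23. Among transcription regulators E2f4 was called higher (1.88) and the repressor E2f7 lower (-1.31).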

How the data were processed

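RNA libraries were read as the deposited gene counts, which the authors made by trimming with cutadapt, aligning to mm10 with STAR and counting with featureCounts. ATAC-seq values were deposited counts per region, made by the authors from aligned unique reads. H3K27ac values were the deposited signal per peak, which the authors scaled to a common number of reads. Young H3K4me3 and H3K27me3 peaks were used by position. The authors' fold change columns, 8 columns of per-sample values that could not be matched to a sample, and H3K36me3 positions were not used, and 92 spike-in sequences were left out of the library totals.

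Counts were tested with edgeR 4.0.16 (R 4.3.3) by its quasi-likelihood test with TMM scaling and filterByExpr on all genes, with Benjamini-Hochberg adjustment. SE was the log2 fold change divided by the square root of F. DESeq2 1.42.0 was an alternative, and limma 3.58.1 was used on log2(signal + 0.5) for H3K27ac as an alternative. ATAC-seq regions needed more than 1.5 CPM in at least 4 libraries. CPM was scaled to the counts on genes, without TMM. Each fit was checked on data with known changes. The members and lists were chosen with earlier results of these data known.

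Genes named were Mcm2, Mcm5, Cdc6, Pcna, Rrm2, Cdc45, Ccne1, E2f1, Mki67, Top2a, Cdk1, Ccnb1, Plk1, Aurkb, Cdc20 and Foxm1 in each group, then per comparison, phase and direction the 2 largest called changes without overlap and members against the majority. Other genes named were chosen after their values were seen. Groups came from the sample labels.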

Additional observations from a re-analysis of the deposited data

Results flagged for a closer look

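In groups of 4 to 8 libraries, a library was marked where its gap to the nearest other library was large against the range of its group, which chance gives in about 1 in 20 groups. Among YHSCs this held for 4 of 56 measures and among OHSCs for 2 of 56. In YHSC replicate 4, Ccnb1 was lowest at 20.4 CPM, with the next library at 25.1. In YHSC replicate 3, Cenpa was lowest at 32.4 CPM (next 38.1) and Tpx2 at 15.97 (next 19.4). In YHSC replicate 2, Cenpf was highest at 15.7 CPM (next 11.3). In OHSC replicate 8, Bub1b was highest at 34.4 CPM (next 23.7) and Cenpf at 17.5 (next 12.4).

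The Btaf1 knockdown effect differed between culture and transplantation by an interaction test in edgeR in 6 mitosis genes. The differences of log2 fold changes were 0.96 for Kif2c, 0.83 for Cenpf, 0.81 for Bub1, 0.74 for Ndc80, 0.70 for Ttk and 0.62 for Aurka.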

How the results depend on the processing

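With any fold change allowed and the p of each rule kept, which is unadjusted for the knockdowns and adjusted elsewhere, the counts called were 15 S phase genes with age, 4 S phase and 29 mitosis genes in the culture knockdown, 2 and 15 in the transplant knockdown, 12 members in the difference between the settings, 11 and 26 for GMP against CMP, 24 and 26 for MEP against CMP, 21 and 25 for MEP against GMP, and 18 ATAC-seq regions. Over all genes tested, the same rule called 18.8% higher and 16% lower for GMP against CMP. The shares were 28.9% and 35.6% for MEP against CMP and 27.7% and 33.7% for MEP against GMP. Of all 89245 ATAC-seq regions tested, 12235 were more and 8508 less accessible at any fold. In the transplant knockdown the count of mitosis genes was 0 at an adjusted p below 0.05, 5 with shRNA1 alone and 0 with shRNA2 alone. With each shRNA alone, 247 of 19608 and 416 of 19639 genes tested were called higher. The difference between settings called 14 members with DESeq2 and 12 with no filter on low counts. H3K27ac gave 4 peaks after scaling libraries to the same median, 6 at a ratio of 1.2 and 0 with limma. The cause was not tested.

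Leaving out 1 library gave 0 to 2 S phase and 2 to 3 mitosis genes with age, 0 to 0 for both in the culture knockdown, 0 to 0 and 0 to 9 in the transplant knockdown, 20 to 22 and 30 to 30 for culture against transplantation, and 2 to 25 for the difference between settings. It gave 2 to 3 and 11 to 14 for GMP against CMP, 11 to 13 and 11 to 12 for MEP against CMP, 11 to 11 and 5 to 8 for MEP against GMP, 24 to 24 and 30 to 30 for CMP against YHSC, 0 to 1 ATAC-seq regions and 2 to 5 H3K27ac peaks (5 without OHSC replicate 2). A lone library left in an arm was assumed to vary like the other groups.

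Same-numbered libraries had correlations of -0.21 to 0.03 for age, -0.03 to 0.04 in culture, -0.07 to 0.11 after transplantation and 0.04 to 0.17 among progenitors, and since not every one was over 0.1 in any fit, the numbers were not read as pairs. With the replicate block, counts were 1 S phase and 2 mitosis genes with age, 0 and 0 in the culture knockdown (0 and 13 lower at an adjusted p below 0.05 with any fold change, in place of 1 and 18), 0 and 1 in the transplant knockdown, 21 and 30 for culture against transplantation, 9 for the difference between settings, 3 and 14 for GMP against CMP, 11 and 12 for MEP against CMP, 11 and 5 for MEP against GMP, 24 and 30 for CMP against YHSC and 1 H3K27ac peak with limma. No paired analysis was possible for ATAC-seq because the ages share no replicate number. Of 2728 values of named genes under alternatives, 2644 kept their side of the threshold, 14 fell below it and 70 moved past it. In 110 of the 2728 the sign changed, all in genes not called under either setting and of a log2 fold change of at most 0.24 in size. These included Mki67, Ccnb1 and Cdk1 in the transplant knockdown without control replicate 1.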

Other observations

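Cep55, which acts in abscission, was the other mitosis gene with the largest difference among progenitors, at a mean of 64.6 CPM in GMP and 1.79 in MEP (log2 fold change -5.27). E2f4 was higher in MEP than in GMP (1.70) and E2f7 lower (-1.03). After transplantation, values of 47 other mitosis genes with Btaf1 knockdown ran from Trip13 at 0.04 to Sgo1 at 0.55, and of 40 other S phase genes from Chaf1a at -0.08 to Clspn at 0.38, and 0 passed an adjusted p below 0.05 in edgeR.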
